A study of Mus musculus with 5 samples.

Results

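The mouse Zfp genes encode zinc finger proteins, most of them DNA-binding regulators of transcription. They were taken as every mouse gene whose symbol is Zfp followed only by digits and at most 1 letter, leaving out Zfp36, whose product binds RNA and belongs to a different family. This rule found 398 genes, of which 389 had rows in the deposited count tables, out of 27179 genes in all. Acetylation of histone H3 at lysine 14 (H3K14ac) at these genes was compared between control and Hbo1 knockout LSK cells, the lineage-negative, Sca-1-positive and Kit-positive fraction of bone marrow enriched in stem and early progenitor cells of the blood. HBO1, also called KAT7, is a lysine acetyltransferase that places this mark, and the comparison asks where the mark differs when the enzyme is deleted.

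Reads came from CUT&Tag, in which an antibody guides the Tn5 transposase to cut and tag DNA near the mark; the antibody was abcam ab52946. The 2 control libraries had the genotype Hbo1def/+; T/+ and the 2 knockout libraries Hbo1def/def; T/+, all from male C57BL/6 mice given poly(I:C) to induce Mx1-cre. Controls therefore also carried 1 def allele and received the same inducer, and Mx1-cre also acts in other cells that respond to interferon. The sources used here give neither ages nor what T stands for, and 1 more library, of HBO1 itself in controls, was not analysed here.

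A classical zinc finger of this family holds a zinc ion between a pair of cysteines and a pair of histidines (C2H2), and arrays of such fingers read DNA sequence. Many Zfp proteins also carry a KRAB box, which recruits the corepressor TRIM28 (KAP1) and, through it, the histone methyltransferase SETDB1 and HP1 proteins, and this pathway is known for silencing retroelements. KRAB zinc finger genes arose by repeated duplication and often lie in tandem clusters, whereas members without the box include general activators and regulators of development.

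Of the 389 genes in the tables, 386 had a RefSeq protein. A KRAB box was found in 223 of them (57.8%) by searching for its conserved start and end, a search that misses strongly diverged boxes, and was not found in 163. The median number of C2H2 fingers matched was 12 in KRAB members and 7 in the others, and 9 members had no match, Zfp185, Zfp330 and Zfp474 among them. Chromosome 7 held 92 members, chromosome 17 held 45 and chromosome 13 held 37. With start sites no more than 200 kb apart and at least 4 members required, 160 members fell into 20 genomic clusters, and 130 of those 160 carried a KRAB box.

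The promoters of 7 members that the results turn on are shown first, since CpG content is used below to divide the members; among these 7 the number of CpGs did not separate the higher from the lower members. Each line gives the 250 bases before the start site from RefSeq, GRCm38.p6, 5′ to 3′ on the gene's strand, with CpG dinucleotides in capitals. Zfp687 (chr3:95015239-95015488, minus strand), Zfp667 (chr7:6286330-6286579, plus strand) and Zfp526 (chr7:25221175-25221424, plus strand) were among the members highest upstream in the knockouts, with 26, 22 and 21 CpGs. Zfp52 (chr17:21535289-21535538, plus strand) was also higher, with 4 CpGs. Zfp957 (chr14:79247368-79247617, minus strand) and Zfp185 (chrX:72987089-72987338, plus strand) were lower upstream, with 4 and 12 CpGs. Zfp385b (chr2:77816817-77817066, minus strand) was lower over its gene body, with 33 CpGs.
Zfp687: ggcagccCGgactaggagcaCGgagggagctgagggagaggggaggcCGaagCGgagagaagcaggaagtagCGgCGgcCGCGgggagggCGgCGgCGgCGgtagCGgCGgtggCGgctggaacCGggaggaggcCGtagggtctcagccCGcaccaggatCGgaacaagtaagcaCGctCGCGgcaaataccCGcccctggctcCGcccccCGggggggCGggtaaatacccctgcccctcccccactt
Zfp667: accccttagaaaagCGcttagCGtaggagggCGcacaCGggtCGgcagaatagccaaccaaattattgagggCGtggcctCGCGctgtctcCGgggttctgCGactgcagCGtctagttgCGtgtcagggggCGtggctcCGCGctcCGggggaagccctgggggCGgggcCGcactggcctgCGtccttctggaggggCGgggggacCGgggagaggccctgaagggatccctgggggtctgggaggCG
Zfp526: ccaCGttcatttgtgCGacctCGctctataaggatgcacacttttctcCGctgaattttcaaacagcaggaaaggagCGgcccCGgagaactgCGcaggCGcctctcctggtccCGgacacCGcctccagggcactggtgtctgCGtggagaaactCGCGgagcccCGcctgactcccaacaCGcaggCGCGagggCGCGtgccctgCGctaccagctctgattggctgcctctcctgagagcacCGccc
Zfp52: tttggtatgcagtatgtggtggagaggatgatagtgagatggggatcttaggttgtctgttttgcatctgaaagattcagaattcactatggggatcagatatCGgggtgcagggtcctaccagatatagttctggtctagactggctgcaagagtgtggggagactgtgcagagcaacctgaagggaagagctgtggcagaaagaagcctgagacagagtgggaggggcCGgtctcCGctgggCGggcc
Zfp957: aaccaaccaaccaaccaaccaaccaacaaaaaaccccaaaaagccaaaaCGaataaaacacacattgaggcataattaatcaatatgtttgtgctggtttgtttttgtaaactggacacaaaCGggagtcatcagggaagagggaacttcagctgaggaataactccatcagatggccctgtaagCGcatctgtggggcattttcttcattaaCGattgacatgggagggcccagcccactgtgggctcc
Zfp185: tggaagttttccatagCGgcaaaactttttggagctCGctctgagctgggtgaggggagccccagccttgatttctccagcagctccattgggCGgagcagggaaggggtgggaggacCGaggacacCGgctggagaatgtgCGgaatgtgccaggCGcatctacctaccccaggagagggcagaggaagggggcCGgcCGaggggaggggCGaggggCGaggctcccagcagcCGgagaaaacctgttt
Zfp385b: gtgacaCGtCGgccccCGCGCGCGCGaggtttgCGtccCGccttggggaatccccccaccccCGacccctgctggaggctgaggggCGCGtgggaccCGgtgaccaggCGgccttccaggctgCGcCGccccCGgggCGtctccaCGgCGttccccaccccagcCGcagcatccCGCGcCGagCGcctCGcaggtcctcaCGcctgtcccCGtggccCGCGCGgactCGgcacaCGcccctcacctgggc

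Among the 324 members with a RefSeq promoter of 300 bases (250 before and 50 after the start), the ETS-type motif CCGGAAG stood on either strand in 21.9%, against 11.9% of 18458 promoters of all genes. It stood in 25% of 196 KRAB members and in 17.3% of 127 members without the box. The GC box GGGCGG stood in 44.4% of members and 46.3% of all genes, the YY1-type motif AAGATGG in 8.95% and 6.44%, and the TATA box TATAAA in 6.17% and 13.1%. A CCGGAAG match was in 24 of the 95 members that were higher upstream and have a promoter in the table. That is 25.3%, near the 21.9% of all members. It was in 0 of 7 that were lower, too few to compare. In the same higher and lower members the GC box stood in 47.4% and 42.9%, the YY1-type motif in 12.6% and 14.3%, and the TATA box in 4.21% and 0%. These are matches of letters and not measured binding sites.

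Counts were deposited for 3 region classes: a window of 5 kb before the start site, the whole gene, and a window of 5 kb after its end, called upstream, gene body and downstream here. Library totals ran from 4723549 to 12386891 counts in gene bodies, from 869859 to 1164409 in the upstream windows and from 677213 to 1260351 in the downstream ones, with the knockout libraries shallower over gene bodies and downstream. Knockout replicate 1 stood apart: 16.5% of its counts lay upstream, against 11.4% in knockout replicate 2 and 7.86% and 8.43% in the controls. Whether the libraries of a group are separate mice is not in the labels, so a p-value here reflects only how far these samples differ, possibly for technical reasons. As no spike-in is named, folds are relative to how libraries were scaled, and in bulk cells a mark on fewer cells and less mark per cell cannot be told apart. Genes that mark LSK cells (10 of 10 found) ranked between the 60.4 and 98.6 percentiles of control gene body counts per kb, and genes of the lineages the sort removes (12 of 13 found) between the 24.7 and 99.3 percentiles, so these counts do not tell the cell types apart.

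Zfp genes took a larger share of upstream H3K14ac counts in the knockouts. The share was 0.962% (95% Wilson interval 0.944 to 0.98) and 1.11% (1.09 to 1.13) in the controls and 1.56% (1.54 to 1.59) and 1.43% (1.41 to 1.46) in the knockouts, intervals that cover counting error only. Both knockouts lay above both controls. Over gene bodies the shares were 0.832% and 0.875% in controls and 1.08% and 0.981% in knockouts, again without overlap, and downstream they were 0.933% and 1.07% against 1.15% and 1.16%. No test was run on these shares. Within each library, the median upstream density of members (counts per kb, scaled to the library's counts over all 3 classes) was 0.857 and 0.871 times the median of all genes in controls, and 1.3 and 1.07 times in knockouts. The same ratio was 0.551 and 0.702 against 0.974 and 0.849 over gene bodies, and 0.645 and 0.758 against 0.867 and 0.864 downstream. These ratios use only counts of 1 library at a time and so do not depend on how libraries were scaled.

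Upstream of their start sites, more Zfp genes were higher in the knockouts than lower. Of 357 members tested, 115 rose and 10 fell (edgeR quasi-likelihood test, Benjamini-Hochberg adjusted over all 23200 genes tested, threshold 0.05), which is 32.2% and 2.8%, beside 24% higher and 14.3% lower among all genes tested. Both knockout libraries lay above both controls at 201 members (all genes, 37.8%) and below both at 62 (all genes, 39.9%). The median log2 fold (knockout over control) was 0.61 for members and -0.09 for all genes. The 32 members not tested had at most 44 counts over the 4 libraries together, and 5 of them had 0. The member median relative to that of all genes was 0.70. It was 0.69 with library totals and 0.72 with totals pooled over the region classes. With scaling on olfactory and vomeronasal receptor genes it was 0.74, and the median of all genes moved to 0.84. A scaling shifts the log2 folds of all genes nearly alike. The relative median could therefore hardly change, and its steadiness is no test of the scaling.

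Leaving out 1 library reduced the upstream calls of members and of all genes alike. Without control replicate 1 no member passed in edgeR (43 had an unadjusted p below 0.05), beside 0.298% higher of all genes. Without control replicate 2, 11 rose, beside 2.71% of all genes. Without knockout replicate 1 none passed (78 had an unadjusted p below 0.05), and 0% of all genes did. Without knockout replicate 2, 46 rose, beside 9.54% of all genes. The members' median log2 fold in these fits was 0.47, 0.74, 0.46 and 0.85, with medians of all genes between -0.09 and 0.01. Among the 115 members that rose, knockout replicate 1 was above knockout replicate 2 at 110, a difference that goes with the higher upstream share of that library; its part in the calls was not tested.

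Zfp608, reported to repress the Rag genes in thymocytes, had the highest upstream log2 fold of the members. Its upstream level was 26 and 28.2 CPM (the count per TMM-scaled library total, in edgeR's units) in the controls and 723 and 299 in the knockouts, so the groups were far apart but the knockouts differed from each other more than the controls did. That is a log2 fold of 4.23 ± 0.99 (SE, edgeR adjusted p = 2.54e-04). Zfp608 lies on chromosome 18, 54888045 to 54990180, and has a CpG-poor start.

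Zfp687 encodes a partner of ZMYND8 in a chromatin complex. Its upstream level was 13 and 14.1 CPM in controls and 198 and 109 in knockouts, a log2 fold of 3.49 ± 0.61 (edgeR adjusted p = 7.90e-07). Zfp667, a KRAB gene also called Mipu1, measured 26.9 and 29.8 CPM against 415 and 215, a log2 fold of 3.47 ± 0.79 (edgeR adjusted p = 1.53e-04). In both genes the lower knockout library was several times the higher control.

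Zfp524, whose human counterpart binds telomere repeats, measured 6.08 and 16.6 CPM upstream in controls and 200 and 63.2 in knockouts, a log2 fold of 3.52 ± 0.58. Its 5 kb window also holds the start of Fiz1, 780 bp away, so the counts of these neighbours cannot be told apart. Zfp526, with 13 fingers, measured 21.7 and 17.4 CPM against 273 and 92 (log2 fold 3.21 ± 0.64), and its window holds the start of Dedd2. Zfp438 on chromosome 18 measured 9.55 and 9.12 CPM against 107 and 63.2 (log2 fold 3.17 ± 0.52). Leaving out either control replicate 1 or knockout replicate 1 ended all 6 of these calls, and that of Zfp608 also with receptor scaling.

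Of the members that fell upstream, Zfp354a, the KRAB gene known as Kid-1 from kidney, measured 55.5 and 76.2 CPM in controls and 18.2 and 25.5 in knockouts, a log2 fold of -1.59 ± 0.48 (edgeR adjusted p = 0.0055). Zfp185, which encodes a LIM domain protein of the actin cytoskeleton, measured 75.5 and 45.6 against 13.6 and 27.7 CPM (log2 fold -1.54 ± 0.48). Zfp957 measured 143 and 104 against 35.2 and 58.7 CPM, a log2 fold of -1.39 ± 0.56. The groups did not overlap in any of these genes, which the rule for naming genes, given below, required.

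Zfp467, a factor that favours fat over bone cell fate in marrow stroma, measured 78.1 and 42.3 CPM in controls and 12.5 and 33.2 in knockouts (log2 fold -1.39 ± 0.47). Zfp474 and Zfp831 both had a log2 fold of -1.15, with knockout levels of 17 and 44.3 CPM for Zfp474 and 18.2 and 43.2 CPM for Zfp831. All 6 of these lower calls were lost with pooled totals, with receptor scaling and without any 1 of the 4 libraries. No member fell upstream with pooled totals or receptor scaling.

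**Figure D1:**
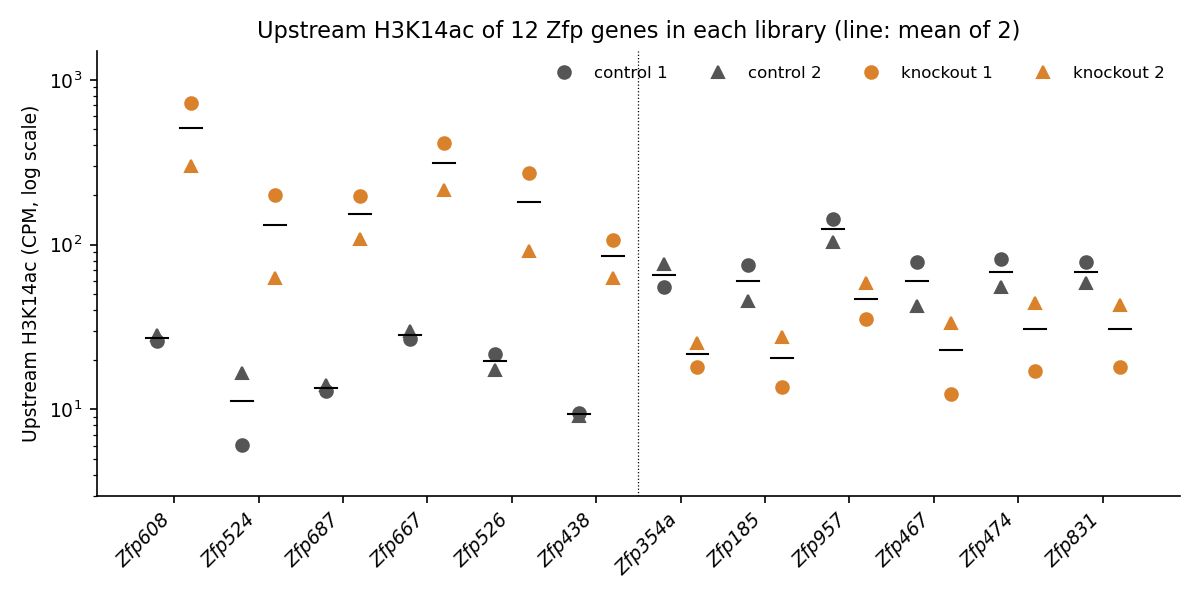
Upstream H3K14ac in CPM (log axis) of the 12 named Zfp genes in each of the 4 libraries. To the left of the dotted line are the 6 with the highest log2 fold, to the right the 6 with the lowest. All 12 had a mean level over the 4 libraries above the median of all genes tested (5.25 in log2 CPM). The controls of the 6 on the left were below that median, so these genes passed it only through the knockouts. Points are libraries and short lines the mean of 2. Knockout replicate 1 (orange circles) is the highest library in each gene on the left, and the lowest in each gene on the right.

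Members with a CpG-rich start carried most of the upstream rises. A start was called CpG-rich when the ratio of observed to expected CpGs within 500 bp on either side was at least 0.6, which held for 212 members and 177 were CpG-poor. Of 199 CpG-rich members tested upstream, 86 rose and 4 fell (43.2% and 2.01%, median log2 fold 0.96), close to all 10328 CpG-rich genes, of which 4422 rose and 348 fell (42.8% and 3.37%, median 0.93). Of 158 CpG-poor members, 29 rose and 6 fell (18.4% and 3.8%, median 0.13), whereas of 11483 CpG-poor genes 979 rose and 2717 fell (8.53% and 23.7%, median -0.71). The CpG-poor members' median turned to -0.06 with library totals and to -0.22 with the stricter filter on counts. Relative to the median of all genes, the CpG-poor members' median stayed between 0.02 and 0.23 in these settings. The difference between Zfp and other genes within a CpG class was not tested, and Zfp185 and Zfp354a lie at the threshold itself, on either side of it.

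**Figure D2:**
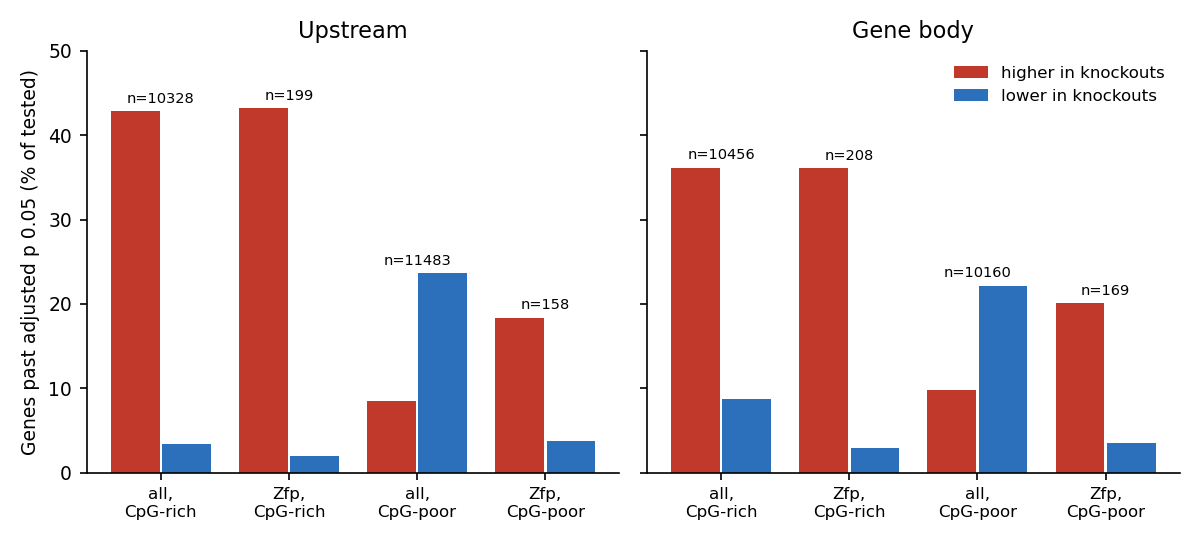
Percent of tested genes past the adjusted p of 0.05 in the upstream (left) and gene body (right) classes, for all genes and for Zfp genes with CpG-rich and CpG-poor starts, red for higher and blue for lower in the knockouts. The red bars of CpG-rich Zfp genes stand near those of all CpG-rich genes, while lower calls were 3.8% upstream in CpG-poor Zfp genes against 23.7% in all CpG-poor genes.

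Across the 357 members, Spearman's rho between the CpG ratio and the upstream log2 fold was 0.36, and across 21811 genes it was 0.58. Genes share libraries, depth and base composition, so these values describe the genes and have no p. The number of fingers had a rho of -0.03 with the upstream log2 fold over 354 members. Zfp52, a KRAB gene with a CpG ratio of 0.35, measured 28.6 and 32.3 CPM in controls and 219 and 107 in knockouts, a log2 fold of 2.42 ± 0.60 (edgeR adjusted p = 5.98e-04), so a high fold was also seen at a CpG-poor start. Its call was lost without either control and without knockout replicate 1.

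**Figure D3:**
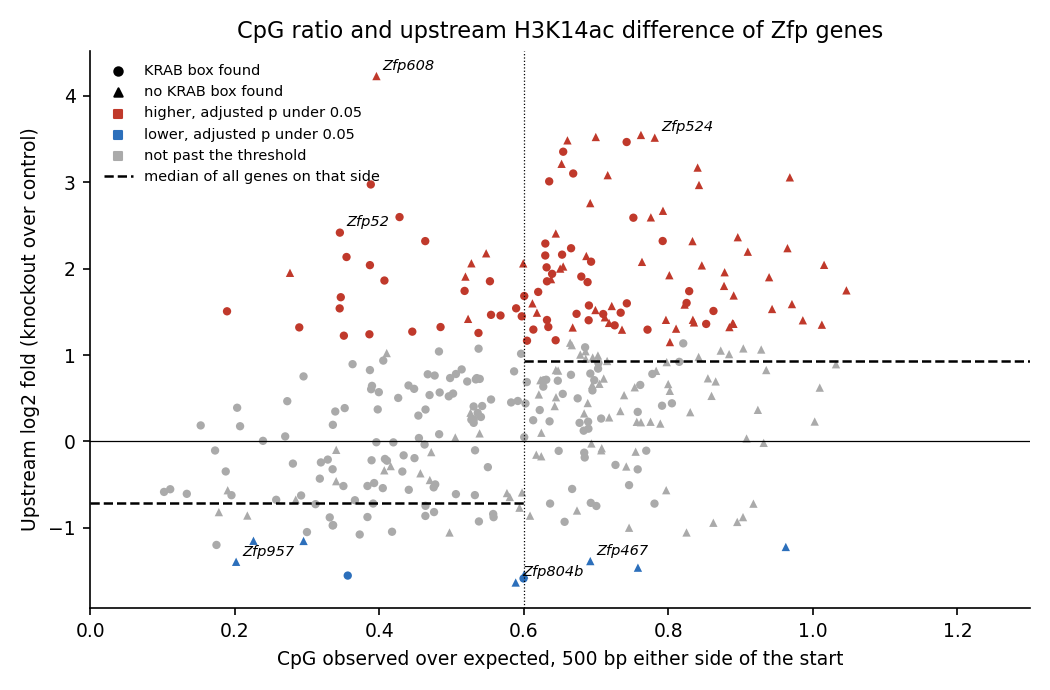
CpG observed over expected ratio around the start (x axis) against the upstream log2 fold (y axis) of the 354 tested Zfp genes with a protein; circles carry a KRAB box and triangles do not, red passed as higher and blue as lower. Dashed lines are the medians of all genes on either side of 0.6 (-0.71 and 0.93); most Zfp genes on the CpG-poor side lie above the line of all genes there.

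Members in which a KRAB box was found had a lower share of CpG-rich starts, 37.2% against 78.5% of the others. Members with a diverged box that the search misses count among the others. Upstream, 57 of 204 KRAB members rose and 2 fell (median log2 fold 0.49), and 58 of 150 members without the box rose and 8 fell (median 0.83). The shares higher were 27.9% and 38.7%, beside 24% of all genes, and the shares lower 0.98% and 5.33%, beside 14.3%. With CpG-rich starts the counts were 35 higher and 0 lower of 79 KRAB members and 51 and 4 of 119 others, with medians of 0.84 and 0.99. Their shares higher, 44.3% and 42.9%, were near the 42.8% of all CpG-rich genes. With CpG-poor starts the counts were 22 and 2 of 125 KRAB members (median 0.28) and 7 and 4 of 31 others (median -0.37, but 0.18 with pooled totals and 0.55 with receptor scaling). That is 17.6% and 22.6% higher, beside 8.53% of all CpG-poor genes, and 1.6% and 12.9% lower, beside 23.7%. The 2 KRAB members that fell were Zfp354a and Zfp931, the latter named after its values were seen.

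Over gene bodies the same 4 libraries gave more higher than lower members. Of 377 members tested, 109 rose and 12 fell (28.9% and 3.18%, edgeR), beside 23.1% higher and 15.2% lower among all 21393 genes tested. Both knockouts lay above both controls at 242 members (all genes, 40.6%) and below both at 48 (all genes, 39.4%), and the median log2 fold was 0.74 for members and 0.02 for all genes. Leaving out control replicate 1 gave 12 higher and 0 lower, control replicate 2 gave 48 and 5, knockout replicate 1 gave 47 and 6, and knockout replicate 2 gave 168 and 18. Of all genes, 6.62%, 12.7%, 11.5% and 29.9% were higher in these fits, so without control replicate 1 the share of members that rose (12 of 378) was below that of all genes. The members' medians were 0.48, 0.95, 0.60 and 0.86, against at most 0.07 for all genes. With CpG-rich starts 75 of 208 members rose and 6 fell over gene bodies (36.1% and 2.88%, median 0.80). Of all 10456 CpG-rich genes, 3780 rose and 917 fell (36.2% and 8.77%, median 0.61), so the shares higher were nearly equal. With CpG-poor starts 34 of 169 members rose and 6 fell (20.1% and 3.55%, median 0.59). Of all 10160 CpG-poor genes, 995 rose and 2252 fell (9.79% and 22.2%, median -0.48). Among the 109 members that rose, knockout replicate 1 was above knockout replicate 2 at 107.

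Among members whose mean level over the 4 libraries was above the median of all genes tested, Zfp672 had the highest gene body log2 fold. Its controls were below that median (3.90 in log2 CPM), so it passed only through the knockouts. It measured 3.95 and 6.73 CPM in controls and 48.5 and 25.5 in knockouts (log2 fold 2.78 ± 0.40, edgeR adjusted p = 1.09e-07), with the start of Sh3bp5l 368 bp upstream. Zfp219, a cofactor of SOX9, measured 4.35 and 7.42 against 41.8 and 19.5 CPM (log2 fold 2.37 ± 0.41). Zfp52 measured 3.95 and 6.73 against 34 and 16.4 CPM (log2 fold 2.23 ± 0.43). In these 3 genes each knockout library was above both controls, as the rule for naming genes, given below, required. None of these 3 calls was lost under any alternative tried.

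Zfp35, Zfp330 and Zfp958 completed the 6 highest. Zfp330, which encodes the nucleolar antigen NOA36 and has no classical finger, measured 5.73 and 6.53 against 30.7 and 18.2 CPM (log2 fold 1.99 ± 0.42). The log2 fold was 2.03 for Zfp35 and 1.86 for Zfp958, and the call of Zfp958 was lost without control replicate 1. The highest gene body log2 fold of any member was 3.97, at Zfp703, a gene named here after its values were seen, which lies below the level set for named genes.

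Of the 12 members that fell over the gene body, 6 spanned 100 kb or more. Of 17 members of 100 kb or more, 1 rose and 6 fell (median log2 fold -0.66), and of all 2275 genes of that length 44 rose and 900 fell (median -0.59). Of 78 members under 10 kb, 33 rose and 1 fell (median 0.97), which is 42.3% higher beside 23.1% of all genes tested. All genes under 10 kb were not counted apart, so this share has no comparison at like length. With receptor scaling the 17 long members had 1 higher, 3 lower and a median near 0, which relative to all genes was -0.68. Spearman's rho between length and the gene body log2 fold was -0.31 over 377 members and -0.19 over all genes tested, again a description across genes.

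Zfp423, an EBF partner that acts in fat cell commitment, spans 298 kb, and its gene body measured 772 and 535 CPM in controls against 212 and 289 in knockouts. That is a log2 fold of -1.38 ± 0.34 (edgeR adjusted p = 9.60e-04). Both knockouts were below both controls, as the rule for naming genes required. Upstream, Zfp423 measured 18.2 and 12.4 against 9.09 and 5.54 CPM, a difference that did not pass (log2 fold -1.06 ± 0.59, edgeR adjusted p = 0.139). Zfp618 measured 663 and 463 against 182 and 271 CPM over its gene body (log2 fold -1.31 ± 0.33).

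Zfp536, a repressor of neuronal differentiation, measured 779 and 497 CPM in controls and 207 and 310 in knockouts over its gene body (log2 fold -1.30 ± 0.34). Zfp385b had the same log2 fold of -1.30 ± 0.32, with 554 and 377 against 162 and 215 CPM. Zfp462, a protein of heterochromatin in embryonic stem cells, had a log2 fold of -1.01 ± 0.31, and the KRAB gene Zfp112 in a chromosome 7 cluster one of -0.97 ± 0.36. Without control replicate 1 all 6 of these calls were lost, and with receptor scaling those of Zfp536, Zfp462 and Zfp112 were lost.

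**Figure D4:**
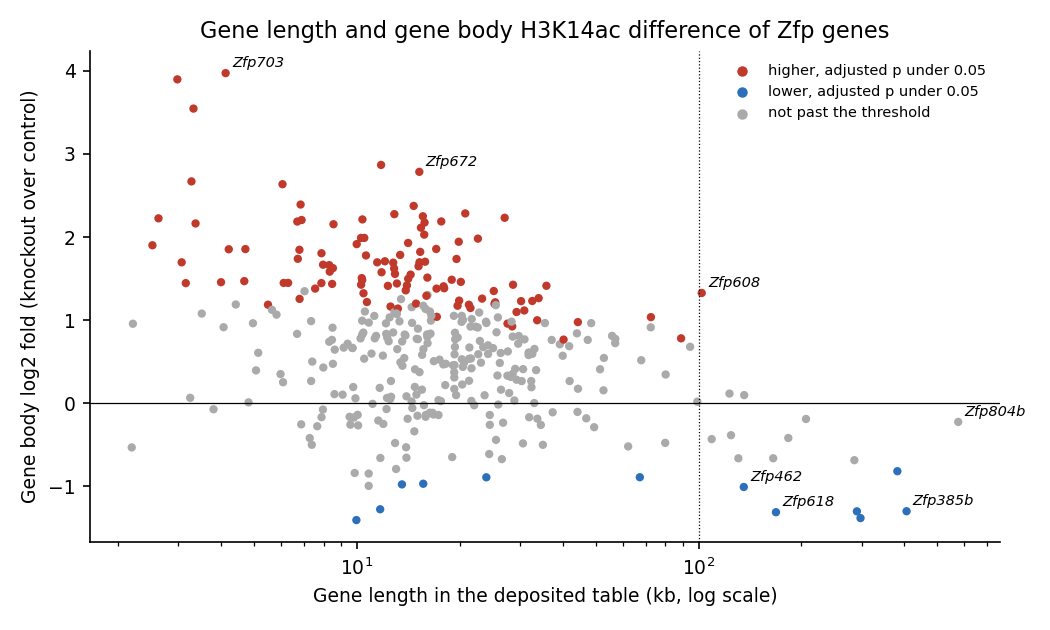
Gene length in kb from the deposited table (log axis) against the gene body log2 fold of the 377 tested Zfp genes; red passed as higher, blue as lower, grey did not pass. To the right of the dotted line at 100 kb, 6 of 17 genes passed as lower and 1, Zfp608, as higher.

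Downstream of the gene ends fewer members passed than upstream or over gene bodies. Of 311 members tested, 23 rose and 2 fell (7.4% and 0.643%, edgeR), beside 10.8% and 2.29% of all 21566 genes tested. Both knockouts were above both controls at 117 members (all genes, 29.9%) and below both at 54 (all genes, 32.7%), with a median log2 fold of 0.28 for members and -0.03 for all genes. Without control replicate 1 the counts were 4 and 0 of 311, beside 3.09% higher of all genes, and without knockout replicate 2 they were 45 and 5 of 344, beside 15.2% higher of all genes. Of the 78 members not tested, none had more than 43 counts in all.

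Zfp384, a factor whose human counterpart forms fusion genes in acute leukaemia, had the highest downstream log2 fold. It measured 7.83 and 11.2 CPM in controls and 537 and 137 in knockouts (log2 fold 5.13 ± 0.87, edgeR adjusted p = 0.00109), with the knockout libraries far apart. Zfp523 measured 50.1 and 38.3 against 736 and 178 CPM (log2 fold 3.36 ± 1.00, edgeR adjusted p = 0.033), a call lost with a GC correction and with receptor scaling. Zfp524, Zfp324, Zfp266 and Zfp658 had log2 folds between 2.80 and 3.18. Of the lower members, Zfp612 measured 103 and 82.2 against 33.6 and 43.5 CPM (log2 fold -1.25 ± 0.37) and Zfp185 had a log2 fold of -1.97 ± 0.56. All 6 of the named higher calls were lost without either control, and the call of Zfp612 was lost likewise and with receptor scaling and without knockout replicate 1.

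Members inside and outside tandem clusters were both more often higher than lower. Upstream, 46 of 153 members in clusters rose and 1 fell (median log2 fold 0.60), and 69 of 204 outside rose and 9 fell (median 0.63). Over gene bodies the counts were 47 and 2 of 158 in clusters and 62 and 10 of 219 outside. Upstream, 30.1% in clusters and 33.8% outside were higher, beside 24% of all genes, and 0.654% and 4.41% lower, beside 14.3%. Over gene bodies 29.7% and 28.3% were higher, beside 23.1% of all genes. In the 5 largest clusters the shares higher upstream were 26.1%, 57.1%, 30.8%, 30% and 8.33%, of 10 to 23 genes tested. The medians of single clusters ran from -0.73 to 1.43 upstream, and their differences were not tested.

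The largest cluster, 23 KRAB genes from Zfp712 to Zfp273 on chromosome 13 (67038594 to 67827000), had 6 higher and 0 lower upstream (median log2 fold 0.61). Its share higher, 26.1%, was near the 24% of all genes. Over gene bodies it had 7 higher and 0 lower of 21 (median 0.97), or 33.3% higher beside 23.1% of all genes. Its highest upstream member was Zfp874b, with 11.3 and 8.29 CPM in controls and 83 and 36.6 in knockouts (log2 fold 2.60 ± 0.50), a value that is uncertain because its protein is 93.1% identical to that of Zfp874a. Its lowest was Zfp708, which binds a class of retroelement, with 9.55 and 16.6 against 10.2 and 5.54 CPM, groups that overlap (log2 fold -0.73 ± 0.59). The call of Zfp874b was lost without either control and without knockout replicate 1.

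The cluster of 15 genes from Zfp84 to Zfp146 on chromosome 7 (29768552 to 30169741) had 8 higher and 0 lower of 14 upstream, with a median of 1.43, and 8 and 0 of 15 over gene bodies. Zfp566 was its highest member, at 3.47 and 4.97 CPM in controls and 54.6 and 34.3 in knockouts (log2 fold 3.35 ± 0.58, edgeR adjusted p = 6.29e-07), a call that ended when either replicate 1 library was left out, and its window also holds the start of Zfp260. Zfp30 was its lowest, at 20.8 and 16.6 against 12.5 and 7.76 CPM (log2 fold -0.88 ± 0.56, edgeR adjusted p = 0.191). The cluster from Zfp677 to Zfp943 on chromosome 17, 13 genes, had 4 higher and 0 lower upstream (median 0.60), with Zfp52 its highest and Zfp820 its lowest member (log2 fold -0.82).

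The cluster from Zfp871 to Zfp101 on chromosome 17, 12 genes, had 3 higher and 0 lower of 10 upstream (median 0.83). Zfp101 was its highest member, with 0.868 and 4.97 CPM in controls and 12.5 and 13.3 in knockouts (log2 fold 2.08 ± 0.68), values that rest on 1 to 12 counts a library, and its call was lost when any 1 of the 4 was left out. The lowest there was Zfp811 (log2 fold 0.06). The cluster of 12 genes from Zfp180 to Zfp575, also on chromosome 7 (24081897 to 24587641), had 1 higher and 0 lower upstream with a median of -0.44, which turned to 0.11 with pooled totals and 0.51 with receptor scaling. Zfp61 was the member that rose there (log2 fold 1.29 ± 0.50, lost with library totals and without any 1 library) and Zfp109 was the lowest (log2 fold -0.86 ± 0.47). The 6 genes from Zfp354c to Zfp354a on chromosome 11 are outside the 5 largest clusters set for naming. They hold the 1 member in any cluster that fell upstream. Their upstream counts were 0 higher and 1 lower, or 16.7% lower, near the 14.3% of all genes. Their median of -0.54 turned to 0.38 with receptor scaling.

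**Figure D5:**
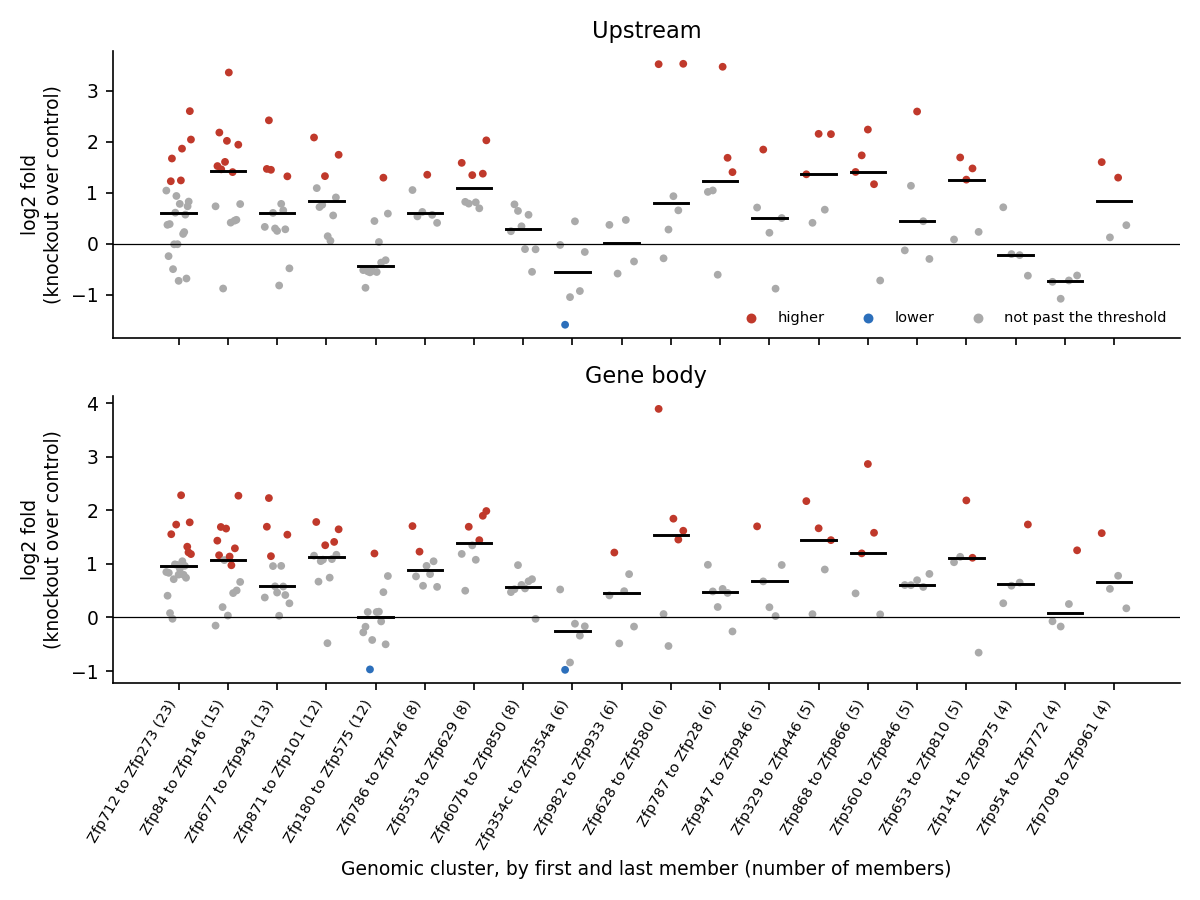
Log2 folds of single Zfp genes in the 20 genomic clusters, upstream (top) and over gene bodies (bottom); each point is a gene, black lines are medians, red passed as higher, blue as lower and grey did not pass. The clusters are ordered by size, and the medians of the 2 largest clusters on chromosome 7 lie at 1.43 and -0.44 upstream.

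Of the members listed as general promoter, RNA or chromatin factors, more rose than fell. Of 18 such genes in the tables (of 19 listed), 11 of 17 tested upstream rose and 0 fell (median log2 fold 1.80), and over gene bodies 10 of 18 rose and 1 fell (median 1.02). The shares higher were 24% and 23.1% of all genes, and 42.8% and 36.2% of CpG-rich genes; the list's median CpG ratio was 0.81. Zfp207, a spindle assembly factor also called BuGZ, measured 4.34 and 4.97 CPM upstream in controls and 84.1 and 27.7 in knockouts (log2 fold 3.55 ± 0.56, edgeR adjusted p = 5.19e-08). Zfp263 measured 14.8 and 18.2 against 182 and 99.7 CPM (log2 fold 3.08 ± 0.58). Zfp143, an activator bound at many promoters, measured 20 and 27.3 against 185 and 102 CPM (log2 fold 2.59 ± 0.58). The knockouts were above both controls in all 3, and all 3 calls ended when either replicate 1 library was left out. Of the whole list, 0 rose upstream with either of those left out, 1 rose with control replicate 2 left out and 8 with knockout replicate 2 left out, with medians between 1.39 and 2.51, in fits that called few of all genes (given above). The list's gene body that fell was that of Zfp407, whose upstream log2 fold was 1.90 and gene body log2 fold -0.82, a pair of values picked out after they were seen.

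Among Zfp genes of stem and blood cells, 1 passed upstream. Of 10 in the tables, 0 of 9 tested rose and 1, Zfp467, fell (median log2 fold -0.02, but 0.53 with pooled totals and 0.86 with receptor scaling). Zfp281, a repressor in pluripotent cells, measured 22.6 and 27.3 CPM against 68.2 and 36.6 upstream, without overlap, and did not pass (log2 fold 1.06 ± 0.46, edgeR adjusted p = 0.0524). Zfp148, also called ZBP-89, measured 33 and 26.5 against 51.1 and 47.6 CPM (log2 fold 0.73 ± 0.45, edgeR adjusted p = 0.182). Over gene bodies 2 of 9 rose, Zfp281 (log2 fold 1.19) and Zfp217 (1.26), and Zfp423 fell, as given above. That is 22.2% higher and 11.1% lower, near the 23.1% and 15.2% of all genes. Upstream the list had 11.1% lower, near the 14.3% of all genes, and 0 higher, beside 24%. Relative to the median of all genes, the upstream median of this list was 0.08.

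Of 15 members known from embryos, imprinting or retroelement silencing, 2 of 12 tested upstream rose and 0 fell (median log2 fold 0.39), and 4 of 15 rose and 1 fell over gene bodies (median 0.49). These shares, 16.7% and 26.7% higher, lie below the 24% and near the 23.1% of all genes. Zfp932, a repressor of endogenous retroviruses, measured 15.6 and 9.12 CPM upstream against 69.3 and 39.9 (log2 fold 2.13 ± 0.49, edgeR adjusted p = 1.88e-04), though its deposited length differs by 41261 bp from the annotated one, so the position of its window is uncertain. Zfp809, which recruits silencing to retroviral DNA, measured 20.8 and 22.4 against 65.9 and 37.7 CPM (log2 fold 1.26 ± 0.46), and over the gene body its log2 fold was 2.19 ± 0.54. The upstream calls of Zfp932 and Zfp809 were lost without any 1 of the libraries. Zfp57, which protects imprints, measured 52.9 and 45.6 against 19.3 and 42.1 CPM (log2 fold -0.68 ± 0.46, edgeR adjusted p = 0.222), and Zfp296 did not pass upstream (log2 fold 0.73) but rose over the gene body (2.16).

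Of 11 members named for work on nervous and other tissues, 0 of 10 tested upstream rose, 3 fell and 7 did not pass (median log2 fold -0.97). That is 30% lower, beside 14.3% of all genes. Over gene bodies 1 of 11 rose and 4 fell (median -0.23, which turned to 0.12 with library totals and 0.42 with receptor scaling). These are 9.09% higher and 36.4% lower, beside 23.1% and 15.2% of all genes. Of all genes of 100 kb or more, 39.6% were lower there, and the list was not split by length. The 3 that fell upstream were Zfp185, Zfp831 and Zfp804b, the last a relative of the psychiatric risk gene ZNF804A. Zfp804b measured 37.3 and 19.1 CPM upstream in controls and 9.09 and 8.86 in knockouts (log2 fold -1.63 ± 0.55, edgeR adjusted p = 0.0127). Zfp488, an oligodendrocyte factor, measured 32.1 and 24 against 7.96 and 18.8 CPM and did not pass upstream (log2 fold -1.06 ± 0.52, edgeR adjusted p = 0.0904), while its gene body fell (log2 fold -1.28 ± 0.42). All 3 lower calls upstream were lost when any 1 of the 4 libraries was left out, with pooled totals and with receptor scaling.

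The genes of the partners through which KRAB proteins silence DNA were higher more often than lower. Of 27 found, 16 of 26 tested upstream rose and 0 fell (median log2 fold 1.55), 15 of 27 rose and 0 fell over gene bodies (median 0.97), and 4 of 25 rose and 0 fell downstream. The shares higher of all genes were 24%, 23.1% and 10.8%, and of CpG-rich genes, to which this list with a median CpG ratio of 0.87 is closer, 42.8%, 36.2% and 14.2%. Trim28, the corepressor that binds the KRAB box, measured 16.5 and 24 CPM upstream in controls and 214 and 101 in knockouts (log2 fold 2.95 ± 0.60). Cbx3, an HP1 protein, had a log2 fold of 3.47 ± 0.65, Ehmt2, the methyltransferase G9a, one of 2.47 ± 0.49 and Daxx, a histone H3.3 chaperone, one of 2.18 ± 0.52. Of this list 0 rose upstream with either replicate 1 library left out, 1 rose with control replicate 2 left out and 6 with knockout replicate 2 left out, beside 0.298% and 0% of all genes, 2.71% and 9.54%, with medians between 1.26 and 1.96. Setdb1, the methyltransferase recruited by TRIM28, did not pass upstream (log2 fold 0.49 ± 0.48, edgeR adjusted p = 0.414).

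Other zinc finger families were also more often higher than lower upstream, with 16 higher and 1 lower of 37 Zbtb genes, 4 and 1 of 11 Zkscan genes and 5 and 1 of 12 Zscan genes, with medians of 1.06, 0.61 and 1.03. The Zbtb share higher, 43.2%, is near the 42.8% of all CpG-rich genes, and 24% of all genes were higher. Their difference from the Zfp genes was not tested. Olfactory and vomeronasal receptor genes, large families that also lie in clusters, had 0 higher and 254 lower (30.2%) of 840 tested upstream (median -0.97), beside 14.3% lower of all genes and 23.7% of CpG-poor genes.

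Some members could not be read cleanly. A protein at least 90% identical to that of another member was found for 20 members, such as Zfp966, Zfp967 and Zfp968 with identical proteins, and reads of such copies may be split or dropped in counting; 11 of the 20 were tested upstream and 1 rose. The upstream window of 42 members held the start of another counted gene, and of 37 such members tested 19 rose and 1 fell (median log2 fold 1.31). Of 320 without one, 96 rose and 9 fell (median 0.53). The shares higher were 51.4% and 30%, beside 24% of all genes and 42.8% of CpG-rich genes. Their median CpG ratios also differed, 0.69 and 0.62, and the part of either feature was not tested. The deposited length was within 20% of the annotated span for 374 members, and equal to it for 286.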

How the data were processed

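H3K14ac CUT&Tag was compared between 2 control and 2 knockout libraries of LSK cells. The authors deposited whole-number read counts per gene for 3 region classes, made with featureCounts on mm10 per the submitters' processing notes; the aligner, strand and multi-mapping settings are not given in the sources used here. Each class was fitted over all its genes with edgeR 4.0.16 (R 4.3.3): filterByExpr (minimum count 10, total 15), TMM, quasi-likelihood test without covariates, Benjamini-Hochberg over all genes tested, threshold 0.05; a standard error is the log2 fold divided by the root of F. CPM uses TMM-scaled totals. Starts, proteins and promoters came from RefSeq GRCm38.p6, taking the transcript span closest to the deposited length. Alternatives used limma 3.58.1 and DESeq2 1.42.0, other scalings and filters, a replicate block, a GC correction and each library left out. On simulated data, 40% of genes changed 4-fold were recovered upstream (23082 genes), 76% over gene bodies (21369) and 65% downstream (21358). Of genes changed 2-fold, 1%, 7% and 7% were recovered, so a member that did not pass may still differ by that much. The simulation changed few genes, as many up as down and with a common dispersion, and 43 genes were called upstream. In the data 5557 genes rose and 3328 fell upstream, so these recovery rates may not carry over to the data.

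The members and lists were chosen with earlier results of these data known. Named genes were, per class, up to 6 members with the highest and 6 with the lowest log2 fold among those past the threshold, without overlap between groups and above the median level of all genes tested, plus up to 4 per list by upstream p and the extremes of the 5 largest clusters. The HBO1 library was left out because it has no H3K14ac counts.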

Additional observations from a re-analysis of the deposited data

How the results depend on the processing

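The median log2 fold of the Zfp genes stayed above 0 in each region class under each alternative run, while the counts of calls moved. Upstream, no member fell with pooled totals (0), receptor scaling (0) or a mean count of at least 50 (0), 19 fell with the GC correction and 2 with the DESeq2 Wald test, and 37 rose with a mean count of at least 50. Over gene bodies, 5 fell with library totals, 6 with pooled totals and 3 with receptor scaling. Downstream, 4 fell with library totals, 0 with receptor scaling, 0 without a filter, 1 with a mean count of at least 50 and 0 with the DESeq2 Wald test, and 15 rose without a filter and 8 with a mean count of at least 50. The stricter filter tests fewer genes (61 members upstream, 44 downstream); the cause of the other differences was not tested. With 1 library left out, from 0 to 46 members rose and 0 fell upstream, from 12 to 168 rose and from 0 to 18 fell over gene bodies, and from 4 to 45 rose and from 0 to 5 fell downstream; the lone library of a group is then assumed to vary like the other group.

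Deviations from the group means of same-numbered libraries had correlations of -0.28 upstream, -0.36 over gene bodies and -0.22 downstream. With 2 libraries in a group their deviations mirror each other, so these values cannot show whether the replicate numbers mark pairs. With the replicate number as a block, 65 rose and 0 fell upstream, 39 rose and 2 fell over gene bodies, and 20 rose and 1 fell downstream. With the crossed replicate block, added after seeing the data, the counts were 135 and 23, 179 and 24, and 46 and 6. Among 53 values of named genes, leaving out control replicate 1 ended 37 calls, control replicate 2 ended 29, knockout replicate 1 ended 26 and knockout replicate 2 ended 12. The replicate block ended 15, the receptor scaling 13, the pooled totals 8 and limma 0. Some of the 53 values, such as those of Zfp281 and Zfp148 upstream, did not pass in the main fit and had no call to lose. The calls that could end were therefore fewer than 53. Low counts limit the upstream and downstream classes most, since 32 and 78 members had too few counts to be tested there against 12 over gene bodies.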
